A study of Mus musculus with 15 samples.

Results

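The 10 genes described here belong to the transforming growth factor beta (TGF-beta) pathway and were followed in RNA-seq counts of sorted mouse skin tumour cells. They comprised the ligand genes Tgfb1, Tgfb2 and Inhba, the latency gene Ltbp1, the receptor genes Tgfbr1 and Tgfbr2, the transducer gene Smad3, the inhibitor genes Smad7 and Skil, and the target gene Tgfbi. The genes were taken by symbol, matched through the Ensembl gene identifier, and not by their levels. All 10 were found among the 37583 genes of the count tables, and all 10 held enough counts to be among the 14652 genes tested.

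The cells came from tumours raised in C57BL/6 mice by the carcinogen DMBA and the tumour promoter TPA over more than 24 weeks, a treatment common to all groups. KO animals carried 2 floxed SIRT6 alleles with a K14-cre transgene (K14-cre; SIRT6 flox/flox), so that Cre acts in keratinocytes, and the other animals were labelled WT with no further allele given. SIRT6 is a histone deacetylase. Each genotype was sorted by flow cytometry on CD34, a surface marker of hair follicle stem cells, and on integrin alpha 6 (a6, encoded by Itga6), an adhesion receptor of basal keratinocytes. The sort gave a6-high cells with CD34 (CD34+ below), a6-high cells without it (CD34-), and cells low in a6 and without CD34 (a6-low). Each population held 2 KO and 3 WT libraries, 15 in all. The labels give neither the age of the animals nor whether cells of several animals were pooled.

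TGF-beta ligands are secreted bound to a latency peptide and to latent TGF-beta binding proteins, and they act once freed. The active ligand joins the type II receptor to the type I receptor, which phosphorylates Smad2 and Smad3, and these enter the nucleus with Smad4. Activin A, a dimer of the Inhba product, signals to the same Smads through activin receptors. In skin the pathway is known for holding back keratinocyte growth and for its changing part in squamous tumours.

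Libraries held 10.08 to 28.62 M gene counts (median 20.27 M). Depth differed by label, with 19.78 to 28.62 M in KO and 10.08 to 21.56 M in WT libraries. Genes with at least 1 count numbered 18321 to 19380 in KO and 15885 to 19122 in WT libraries. The part of depth in the KO against WT differences was not tested. All 9 keratinocyte markers were detected in every library, at 43800 to 90600 CPM in sum (CPM, counts per M gene counts of the library, after TMM scaling). Sirt6 lay between 5.07 and 8.53 CPM under the KO label and between 4.45 and 10.5 CPM under the WT label. Its counts cover the whole gene and the floxed exons are not given in the sources used here, so Sirt6 does not check the genotype, and KO below means the label. Cd34 averaged 185 ± 20.3 CPM in CD34+ and 16.1 ± 4.67 CPM in CD34- libraries (SD, n = 5 each). In a6-low libraries it lay at 4.51 and 27.7 CPM in KO and at 40.3, 10.3 and 15.5 CPM in WT. The 2 highest, KO replicate 2 and WT replicate 1, stood above every CD34- library (at most 20.9 CPM). All 5 lay below every CD34+ library (at least 163 CPM). Itga6 had 263 to 576 CPM in CD34+ and CD34- libraries, but 2 of the 5 a6-low libraries, those of KO replicate 2 (445 CPM) and WT replicate 1 (471 CPM), stood at that level and the other 3 at 67.9 to 174 CPM. The 3 libraries of KO replicate 2 alone held Y-linked reads, with Ddx3y at 51.9 to 74.9 CPM against at most 0.222 CPM in the other 12. Every KO against WT comparison thus had such reads on the KO side alone, and their bearing on the differences was not tested. Results that rest on these libraries are therefore given with and without them.

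RefSeq promoter windows (build GRCm38.p6, 250 bases before to 50 after the gene start) were at hand for 8 of the 10 genes, in 10 windows. Those of 4 genes are shown, chosen by their values. Inhba and Tgfb2 varied most between libraries, and each was highest in KO replicate 2 in every population. Ltbp1 lay higher in KO than in WT CD34+ libraries, and Tgfbi was lower in every CD34+ library than in its CD34- partner. Capitals mark the motifs searched on both strands, and each sequence is the gene's own strand, 5′ to 3′.
Tgfb2, chr1:186705940-186706239, minus strand: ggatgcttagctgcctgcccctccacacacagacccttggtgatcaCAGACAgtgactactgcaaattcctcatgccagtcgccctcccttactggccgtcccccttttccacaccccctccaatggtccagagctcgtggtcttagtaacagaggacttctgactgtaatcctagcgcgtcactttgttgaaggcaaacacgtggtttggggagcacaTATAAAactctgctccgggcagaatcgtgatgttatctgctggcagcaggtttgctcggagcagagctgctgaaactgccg
Inhba, chr13:16011601-16011900, plus strand: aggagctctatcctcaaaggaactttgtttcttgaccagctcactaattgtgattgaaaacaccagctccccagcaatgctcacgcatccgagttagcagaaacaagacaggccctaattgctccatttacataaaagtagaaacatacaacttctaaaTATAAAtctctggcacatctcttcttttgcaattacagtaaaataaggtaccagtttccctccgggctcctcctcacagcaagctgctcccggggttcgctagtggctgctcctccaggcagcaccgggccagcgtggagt
Ltbp1, chr17:75005279-75005578, plus strand: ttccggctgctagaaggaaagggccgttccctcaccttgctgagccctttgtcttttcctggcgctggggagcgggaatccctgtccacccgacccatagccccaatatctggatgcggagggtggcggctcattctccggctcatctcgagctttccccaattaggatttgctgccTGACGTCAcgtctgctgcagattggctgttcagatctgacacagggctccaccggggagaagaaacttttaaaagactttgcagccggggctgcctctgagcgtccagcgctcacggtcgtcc
Tgfbi, chr13:56609336-56609635, plus strand: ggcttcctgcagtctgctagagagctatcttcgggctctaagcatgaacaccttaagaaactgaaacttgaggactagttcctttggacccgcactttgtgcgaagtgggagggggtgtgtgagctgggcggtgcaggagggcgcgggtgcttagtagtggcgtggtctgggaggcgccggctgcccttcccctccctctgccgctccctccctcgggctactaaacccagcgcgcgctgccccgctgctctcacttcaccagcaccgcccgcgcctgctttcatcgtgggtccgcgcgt
The 5 motifs searched were the Smad palindrome GTCTAGAC, the core CAGACA of the Smad-bound CAGA box, the AP-1 site TGANTCA that responds to TPA, the cyclic AMP element TGACGTCA and the TATA box core TATAAA. None of the 10 windows held the Smad palindrome or the AP-1 site, which 0.213% and 7.81% of all 32851 windows of 300 bases held. CAGACA occurred in 3 of 10 windows, one each of Tgfb2, Tgfbr1 and Ltbp1, against 21.0% of all windows. TATAAA lay 31 bases before the start in Tgfb2 and 91 bases before it in Inhba (2 of 10 windows, against 13.6%), and TGACGTCA 73 bases before the start in the Ltbp1 window shown (1 of 10, against 1.79%). No motif overlapped another. The windows of Tgfb1, Tgfbr2, Smad3 and Tgfbi held none of the 5, nor did the other Tgfbr1 window. A match says only that these letters stand in the window.

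Per kilobase of exon (length of all exons joined, GENCODE M21), Tgfbi was the most abundant gene, with a mean of 65.5 CPM per kb over the 15 libraries (range 24.0 to 103). Tgfbi encodes a secreted matrix protein that TGF-beta induces. Skil followed at 7.10 (2.46 to 18.7), Tgfbr2 at 5.60 (2.97 to 11.2), Inhba at 5.56 (0.130 to 30.2) and Ltbp1 at 4.28 CPM per kb (2.73 to 7.59). Tgfbr1 stood at 2.74 (1.53 to 4.99), Tgfb1 at 2.10 (0.692 to 3.25), Smad7 at 1.97 (1.05 to 3.47), Tgfb2 at 1.41 (0.219 to 5.75) and Smad3 at 1.23 CPM per kb (0.361 to 4.71). The range of Tgfbi lay above those of the others except that of Inhba, whose highest library passed the lowest of Tgfbi. All other neighbours in this order overlapped in their ranges.

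The genes differed most in how far their CPM spread. The highest library stood over the lowest 232-fold for Inhba, 26.2-fold for Tgfb2, 13.1-fold for Smad3 and 7.61-fold for Skil, and 2.78-fold to 4.70-fold for the other 6, beside a median of 2.44-fold over all tested genes, for which 1 CPM was added to each value. The a6-low library of KO replicate 2 was the highest of all 15 for 7 of the 10 genes. Within the a6-low population, the 2 highest of the 5 libraries were KO replicate 2 and WT replicate 1 for 10 of 10 genes, while this order held for 24.6% of tested genes. These are the 2 with high Itga6. The order was looked at after the values were seen.

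**Figure D1:**
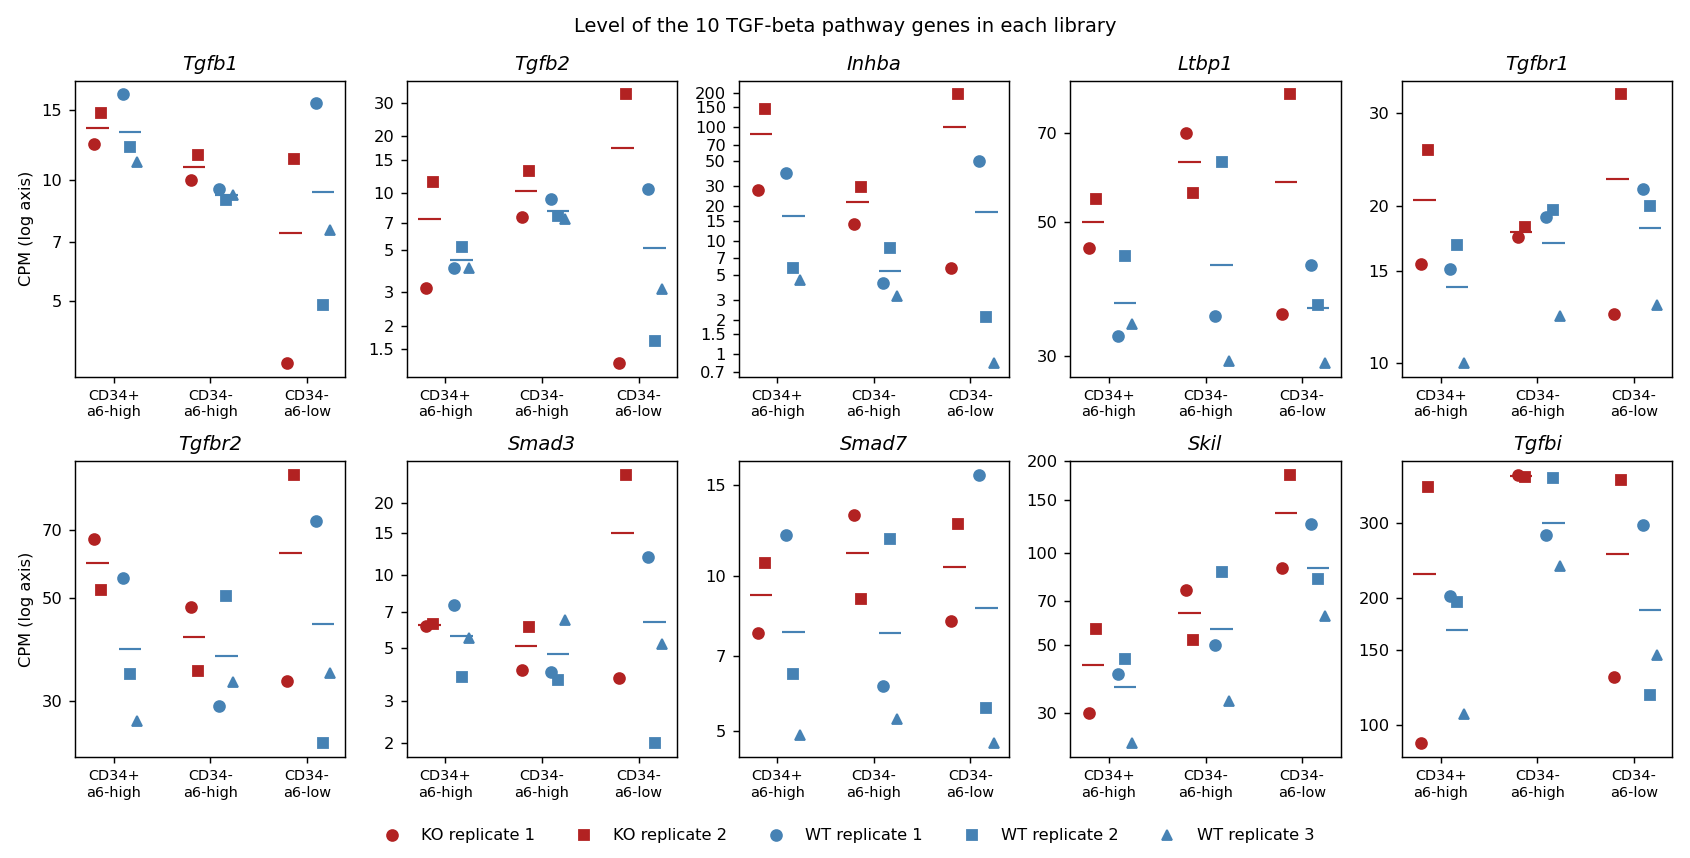
Level of each gene in CPM (log axis) in the 15 libraries, by sorted population, with KO (red) left of WT (blue), 1 symbol per replicate number and a line at the mean of each group. In a6-low cells the KO replicate 2 square and the WT replicate 1 circle are the 2 highest points in every panel, and Inhba spans 0.833 to 193 CPM.

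Among the ligand genes, Tgfb1 (ENSMUSG00000002603), the main TGF-beta of skin, was the steadiest. In CD34+ cells it lay at 12.3 and 14.7 CPM in KO and at 16.4, 12.1 and 11.1 CPM in WT libraries. In CD34- cells it lay at 10.0 and 11.6 CPM in KO and at 9.52, 8.93 and 9.20 CPM in WT libraries. Each CD34+ library was thus above the CD34- library of the same genotype and replicate number (the replicate label), by 0.26 to 0.78 on the log2 scale, although the 2 groups overlapped. Among all tested genes 4.2% had groups without overlap there, and none of the 10 pathway genes did. Such an order in all 5 pairs was met by 10.1% of tested genes, and the difference did not pass the test (log2 0.42 ± 0.34 SE, adjusted p = 0.656). In a6-low cells Tgfb1 lay at 3.49 and 11.3 CPM in KO and at 15.6, 4.88 and 7.50 CPM in WT libraries, the 2 high values being those of the libraries with high Itga6. Tgfb1 was nonetheless higher in the CD34+ than in the a6-low library in 5 of 5 pairs, as were 14.7% of tested genes (log2 0.68 ± 0.34 SE, adjusted p = 0.272).

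Tgfb2 (ENSMUSG00000039239), a second TGF-beta ligand, ran the other way between the a6-high populations. It lay at 3.15 and 11.5 CPM in KO and 4.02, 5.24 and 4.02 CPM in WT CD34+ libraries. In CD34- libraries it lay at 7.50 and 13.1 CPM in KO and 9.37, 7.60 and 7.29 CPM in WT. It was lower in CD34+ cells in 5 of 5 pairs, an order met by 10.2% of tested genes, with a log2 difference of -0.68 ± 0.69 SE (adjusted p = 0.746). In a6-low libraries it ran to 1.27 and 33.3 CPM in KO and 10.6, 1.66 and 3.14 CPM in WT, the widest spread of the 3 populations.

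Inhba (ENSMUSG00000041324), which encodes the activin A subunit, varied most of the 10. In CD34+ cells it lay at 27.6 and 144 CPM in KO and at 39.3, 5.75 and 4.51 CPM in WT libraries. In CD34- cells it lay at 14.1 and 29.3 CPM in KO and 4.25, 8.60 and 3.22 CPM in WT libraries, and in a6-low cells at 5.74 and 193 CPM in KO and 50.4, 2.11 and 0.833 CPM in WT libraries. KO replicate 2 was highest in each population, and the populations overlapped widely. The difference of CD34+ and CD34- cells was large but poorly determined (log2 1.80 ± 1.12 SE, adjusted p = 0.513, higher in 4 of 5 pairs). With the block it was 0.97 ± 0.76 SE, and it ran from 0.96 to 2.18 with 1 library left out. Ltbp1 (ENSMUSG00000001870), the latent TGF-beta binding protein gene, stayed between 29.2 and 81.1 CPM, with means of 42.0 ± 9.06 CPM in CD34+, 50.5 ± 17.7 CPM in CD34- and 44.9 ± 20.8 CPM in a6-low libraries (SD, n = 5 each). Its log2 differences between populations were within ± 0.27 and did not pass the test (adjusted p = 0.732, 0.870 and 0.875).

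The receptor genes and Smad3 showed no population difference that passed the test. Tgfbr1 (ENSMUSG00000007613), the type I receptor gene, averaged 16.6 ± 5.60 CPM in CD34+, 17.3 ± 2.90 CPM in CD34- and 19.9 ± 8.20 CPM in a6-low libraries (SD, n = 5 each). Its CD34 log2 difference was -0.04 ± 0.29 SE, with an interval of ± 2 SE from -0.61 to 0.53, so differences up to about that size in either direction cannot be told from none. Tgfbr2 (ENSMUSG00000032440), the type II receptor gene, averaged 47.1 ± 16.2, 39.1 ± 9.46 and 51.4 ± 29.6 CPM in the same order, with a CD34 log2 difference of 0.29 ± 0.35 SE (adjusted p = 0.804). Smad3 (ENSMUSG00000032402) averaged 5.84 ± 1.36, 4.86 ± 1.33 and 9.79 ± 9.86 CPM. In a6-low cells KO replicate 2 stood highest at 26.1 CPM, beside 3.74 CPM in the other KO and 11.9, 2.0 and 5.19 CPM in the WT a6-low libraries.

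Of the inhibitors, Skil was the gene of the set with a called population difference. Skil (ENSMUSG00000027660, chromosome 3) encodes SnoN, a nuclear protein that binds Smad complexes and represses their targets, and it is itself induced by TGF-beta. In CD34+ cells it lay at 29.9 and 56.4 CPM in KO and at 40.3, 45.0 and 23.8 CPM in WT libraries. In CD34- cells it lay at 75.8 and 51.9 CPM in KO and at 50, 87.1 and 32.7 CPM in WT libraries, and in a6-low cells at 89.3 and 181 CPM in KO and at 125, 82.2 and 62.1 CPM in WT libraries. The lowest a6-low library stood above the highest CD34+ library, so these 2 groups did not overlap, while the CD34- group overlapped both.

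Skil fell to 39.1 ± 12.8 CPM in CD34+ cells, against 108 ± 46.7 CPM in a6-low cells (SD, n = 5 each). The log2 difference was -1.47 ± 0.34 SE, a 2.78-fold lower level (edgeR quasi-likelihood test, adjusted p = 0.0304), and it was lower in 5 of 5 pairs, with differences of -1.68 to -0.87 on the log2 scale, as were 14.4% of tested genes. With the replicate label as a block the adjusted p was 0.0067. It was 1 of 10 pathway genes called, while the test called 4.93% of all tested genes in that comparison, 2.68% of all tested genes as lower, and 6.91% of tested genes had 2 groups without overlap. In bulk RNA, fewer cells of a type and less RNA per cell cannot be told apart.

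The Skil call was not stable to the loss of libraries. It was lost without the CD34+ library of KO replicate 1 (log2 -1.28, adjusted p = 0.151), of KO replicate 2 (-1.74, 0.0586), of WT replicate 1 (-1.51, 0.0509) or of WT replicate 3 (-1.36, 0.0686), and on dropping KO replicate 2 (-1.18, 0.0828) from the a6-low group, or WT replicate 2 (-1.50, 0.0513). Without the 2 a6-low libraries of high Itga6 the log2 difference was -1.02 (adjusted p = 0.107), and without the 3 libraries of KO replicate 2 it was -1.44 (adjusted p = 0.113). The direction was lower in CD34+ cells in each of these fits. The 8 neutrophil and mast cell markers summed to 89.1 to 314 CPM in CD34+ and 206 to 1520 CPM in a6-low libraries, with Cpa3, Ms4a2 and Mcpt4 at 0 in all 15. Nearly all of that sum was S100a8 (up to 973 CPM) and S100a9 (up to 549 CPM), while Csf3r, Ly6g and Kit reached 0.164, 0.0840 and 0.981 CPM at most. The 15 macrophage and dendritic cell markers summed to 22.5 to 39.1 CPM and 22.8 to 67.1 CPM. Itgax was at 0 in 8 and Mrc1 at 0 in 10 of the 15 libraries. Cd68 and Cd14 had the highest medians of these markers over all libraries (12.6 and 7.82 CPM), followed by Lyz2 at 1.49 CPM. The part of either cell type in the Skil difference was not tested. The 8 fibroblast markers stayed at or below 0.328 CPM and 4.66 CPM in sum.

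Against CD34- cells Skil had a log2 difference of -0.60 ± 0.33 SE in CD34+ cells (adjusted p = 0.451), and CD34- against a6-low cells gave -0.87 ± 0.33 SE (adjusted p = 0.369). Mean Skil thus stood lowest in CD34+ (39.1 CPM), then CD34- (59.5 ± 21.7 CPM), then a6-low cells (108 CPM), and the neighbours in this order overlapped. Smad7 (ENSMUSG00000025880), which encodes the inhibitory Smad that blocks the type I receptor, had means of 8.36 ± 2.93, 9.08 ± 3.43 and 9.34 ± 4.67 CPM in the same populations, which differed by less than their SDs, and a log2 difference of -0.16 ± 0.39 SE between CD34+ and a6-low cells (adjusted p = 0.855).

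**Figure D2:**
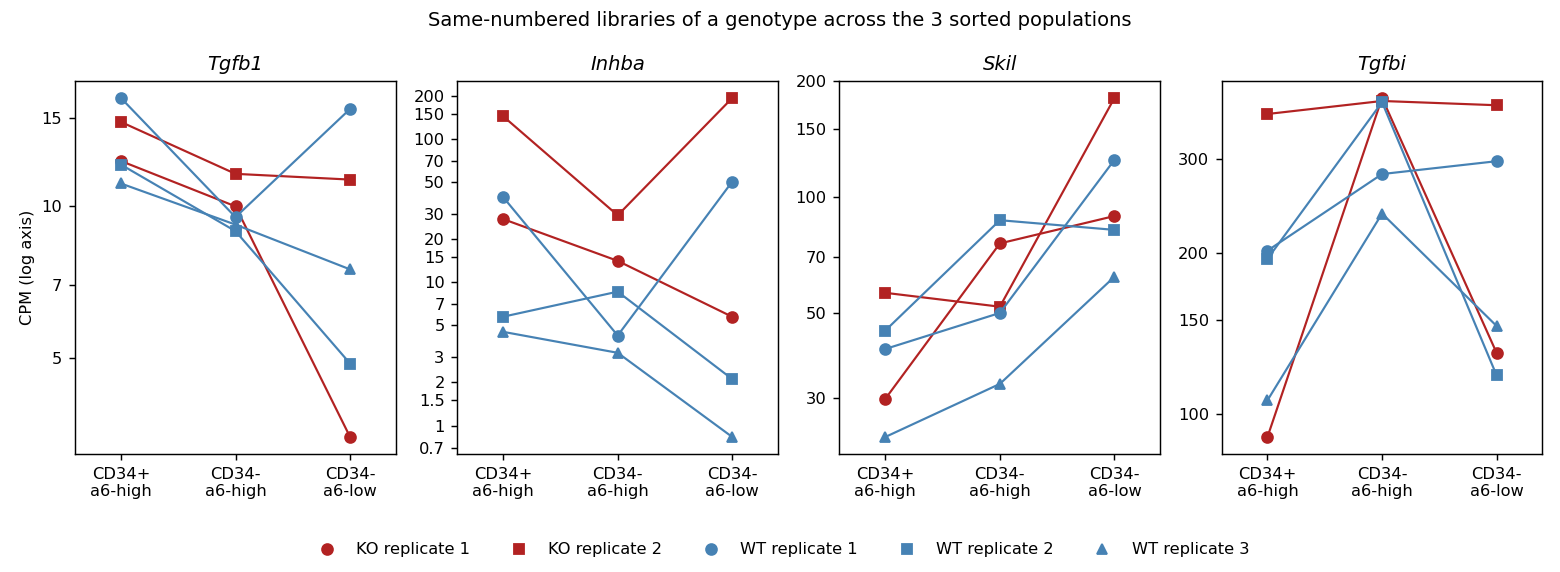
CPM (log axis) of Tgfb1, Inhba, Skil and Tgfbi across the sorted populations, with a line joining libraries of 1 genotype and replicate number (KO red, WT blue). Skil is lower in the CD34+ than in the a6-low library on every line, as are 14.4% of tested genes. Tgfbi is lower in the CD34+ than in the CD34- library on every line, as are 10.2% of tested genes.

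The target gene Tgfbi (ENSMUSG00000035493, chromosome 13) was lower in CD34+ than in CD34- cells within each replicate label, as were 10.2% of tested genes. It lay at 90.5 and 364 CPM in KO and at 202, 195 and 106 CPM in WT CD34+ libraries. In CD34- libraries it lay at 390 and 385 CPM in KO and at 281, 383 and 237 CPM in WT. The gap was widest in KO replicate 1 (-2.11 on the log2 scale) and nearly nil in KO replicate 2 (-0.08), and the 2 groups overlapped through the CD34+ library of KO replicate 2. The log2 difference of -0.81 ± 0.41 SE did not pass the test (adjusted p = 0.393), nor with the replicate label as a block (-1.03 ± 0.31 SE, adjusted p = 0.0948). In a6-low libraries Tgfbi lay at 130 and 378 CPM in KO and at 297, 118 and 146 CPM in WT, again with the libraries of high Itga6 on top.

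Counted together, 0 of the 10 genes were called between CD34+ and CD34- cells, where the test called 1.17% of all tested genes, and also 0 with the block, which called 5.41%. Of the 10, 4 were higher and 6 lower, with a median log2 difference of -0.08 beside -0.02 over all tested genes. Between CD34- and a6-low cells 0 of 10 were called, 3 were higher and 7 lower, and the median was -0.14 beside -0.02. That test called 1 of all genes (0.00683%), where DESeq2 called 243 at the same adjusted threshold. An unadjusted p under 0.05 was reached in the edgeR test by 1621 genes, Skil among the 10. Between CD34+ and a6-low cells 1 gene was higher and 9 lower, with a median of -0.16 beside -0.02. The 3 comparisons share libraries, so their directions are not independent of each other.

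These directions turned with the 2 a6-low libraries of high Itga6. Without the KO replicate 2 library of the a6-low group alone, 9 of the 10 genes were higher in CD34+ than in a6-low cells (median log2 difference 0.30) and 8 of 10 in CD34- than in a6-low cells (median 0.17). Without both libraries (left out once their values were known) 9 of the 10 genes were higher in CD34- than in a6-low cells, and their median log2 difference was 0.56. Skil was the one gene lower. Tgfb1 then had a log2 difference of 1.1 ± 0.24 SE and Tgfb2 one of 2.37 ± 0.47 SE, in a fit that called 342 genes. In CD34+ against a6-low cells 9 of 10 were then higher too, with a median of 0.60, and Tgfb1 (1.52 ± 0.25 SE) and Inhba (3.74 ± 0.98 SE) had the smallest p of the 10 in a fit that called 979 genes. The 2 libraries set aside are the highest of the a6-low group for all 10 genes, so their removal fixes the direction in part, and these values are a description of the remaining 3 a6-low libraries with no test. One of the 3 is the lone KO library, which is assumed to vary like those of the other groups.

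**Figure D3:**
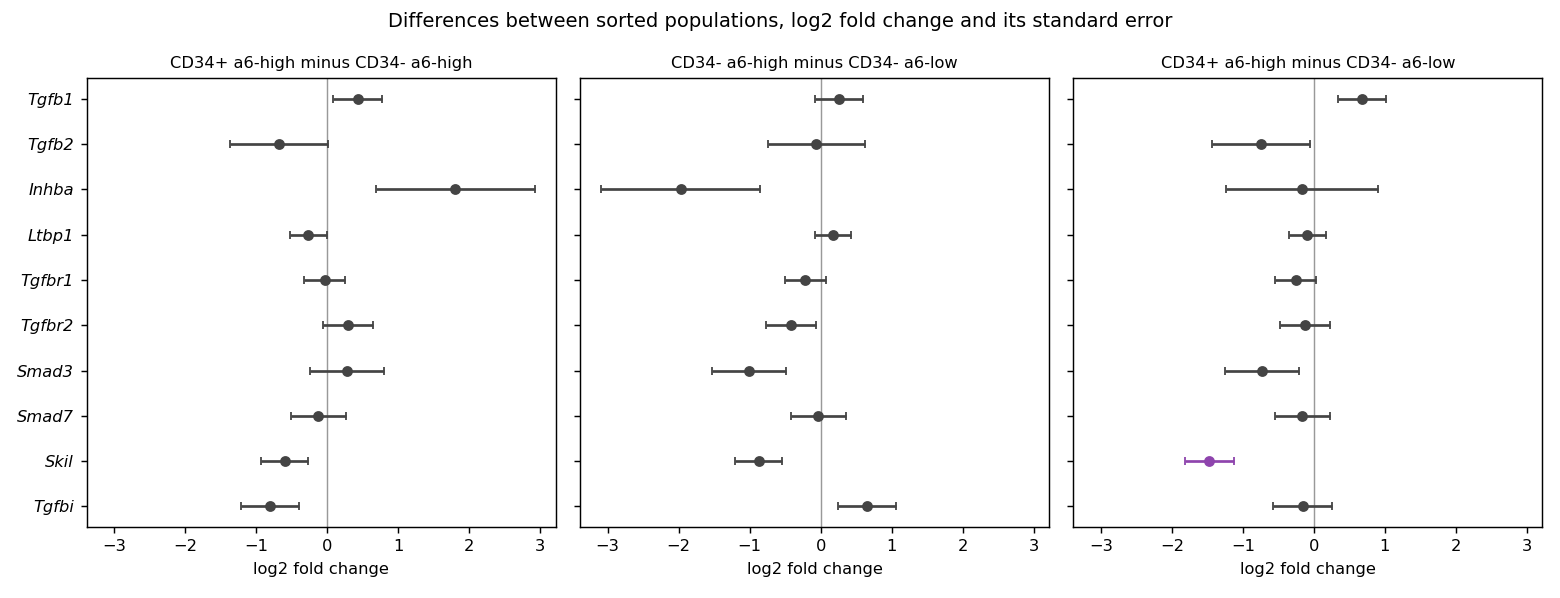
Log2 fold change and its standard error (bars) of each gene between sorted populations, means of the KO and WT differences in 1 fit of 15 libraries; purple marks an adjusted p under 0.05. Skil in the right panel, at -1.47 ± 0.34, is the one purple point, and the bars of Inhba are the longest in each panel.

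The KO and WT libraries of each population were compared next. No gene of the 10 was called in CD34+, CD34- or a6-low cells, where the test called 1 gene each (0.00683%). DESeq2 called 27, 38 and 6 genes at the same adjusted threshold. An unadjusted p under 0.05 was reached in the edgeR test by 1112, 1405 and 687 genes. Nor was any of the 10 called in the sums per replicate label, 2 KO against 3 WT. There edgeR called 0.00641% of tested genes and DESeq2 called 143 genes, and 1656 had an unadjusted p under 0.05 in edgeR. None passed, and 10, 10 and 9 of the 10 genes lay higher in libraries labelled KO in the 3 populations and 9 in the sums, beside 51.0%, 53.6%, 53.5% and 52.8% of all tested genes. A block in KO against WT matches libraries by replicate number alone, which leaves WT replicate 3 without a KO partner. With it 8, 8, 9 and 8 of the 10 lay higher. Without the 3 libraries of KO replicate 2 it was 5 in CD34+, 8 in CD34- and 0 in a6-low cells, beside 47.4%, 50.9% and 46.3% of all tested genes, with 1 KO library left in each population. In the fit of all libraries their median log2 differences were 0.44, 0.29, 0.55 and 0.36, beside 0.01, 0.05, 0.04 and 0.03 over all tested genes. The populations share replicate labels and are not separate repeats of this direction.

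Inhba had the largest KO difference in each population, at log2 2.37 ± 1.52 SE, 2.0 ± 1.53 SE and 2.46 ± 1.52 SE (adjusted p = 0.674, 0.652 and 0.865). In the sums it lay at 15.4 and 122 CPM in KO and at 34.9, 6.40 and 2.74 CPM in WT, so that 1 KO sum stood above all others and the other KO sum below WT replicate 1 (log2 2.22 ± 1.16 SE, adjusted p = 0.508). Without KO replicate 2 the log2 difference of the sums was 0.06 (adjusted p = 0.988). Tgfb2 had 3.99 and 19.4 CPM in KO and 7.86, 5.66 and 4.80 CPM in WT sums, with log2 0.94 ± 0.61 SE (adjusted p = 0.571) and -0.62 without KO replicate 2 (adjusted p = 0.640). Without that replicate label 5 of the 10 genes were higher and 5 lower in KO, with a median of -0.04.

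Ltbp1 was 1 of the 5 genes that stayed higher in the KO sums without KO replicate 2. In CD34+ cells both KO libraries (45.3 and 54.6 CPM) stood above the 3 WT libraries (32.4, 43.9 and 33.9 CPM), the one gene of the 10 without overlap there, as in 14.9% of tested genes. In CD34- cells it lay at 70.0 and 55.7 CPM in KO and 34.9, 62.7 and 29.4 CPM in WT, and in a6-low cells at 35.2 and 81.1 CPM in KO and 42.4, 36.4 and 29.2 CPM in WT. These groups overlapped. Its sums were 50.4 and 63.5 CPM in KO and 36.9, 51.6 and 31.2 CPM in WT (log2 0.51 ± 0.25 SE, adjusted p = 0.495), and 0.34 without KO replicate 2 (adjusted p = 0.754).

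In CD34- cells Tgfb1, Inhba and Tgfbi lay higher in both KO than in all WT libraries, 3 of 10 beside 16.5% of tested genes. Tgfbi lay at 390 and 385 CPM in KO and 281, 383 and 237 CPM in WT, where the gap to WT replicate 2 was small (log2 0.37 ± 0.57 SE, adjusted p = 0.834). In a6-low cells all 10 genes overlapped between KO and WT, and so they did in the sums, where KO lay above WT without overlap in 8.51% and 15.2% of tested genes. Whether the CD34 or the a6 difference itself depended on genotype was tested as an interaction, which called 0 of 14652 genes in either case. DESeq2 called 1 and 0 genes at the same adjusted threshold. An unadjusted p under 0.05 was reached in the edgeR test by 159 and 168 genes. For the 10 genes the adjusted p was 1 and 0 had an unadjusted p under 0.05.

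**Figure D4:**
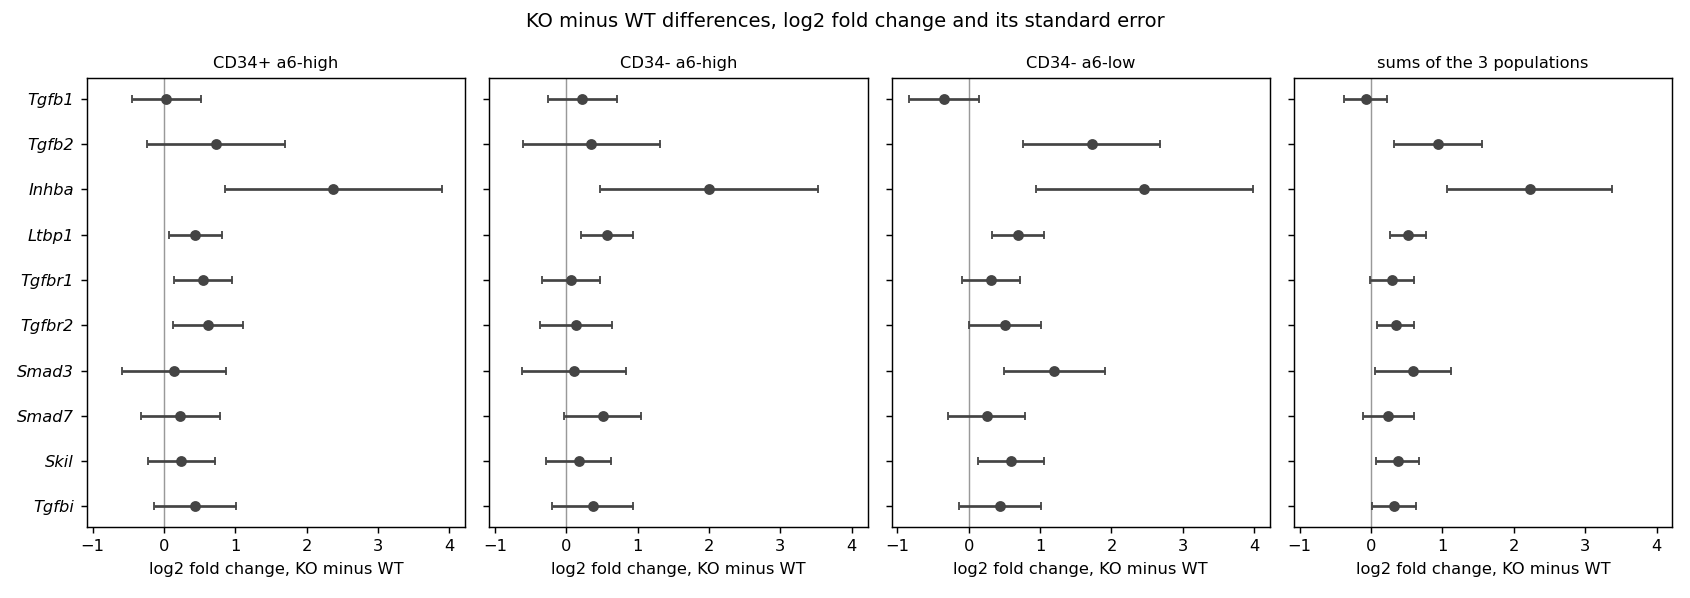
Log2 fold change, KO minus WT, and its standard error (bars) of each gene in the 3 sorted populations and in the sums per replicate label. Nearly all points lie right of 0, Inhba farthest at 2.0 to 2.46, and no point passed the test.

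Other genes of the pathway, 71 in 5 lists, were read in the same fits. Between CD34+ and CD34- cells, the counts called higher and lower were 0 and 0 of 12 tested ligand, latency and activation genes, 0 and 0 of 10 receptor genes, 0 and 0 of 5 Smad genes, 0 and 1 of 15 inhibitors and modulators, and 0 and 0 of 21 target genes. Over these 5 lists 9 of 12, 9 of 10, 5 of 5, 10 of 15 and 13 of 21 genes were lower, with medians of -0.30, -0.27, -0.18, -0.19 and -0.15 beside -0.02 over all tested genes. The gene called was Cd109, which encodes a surface co-receptor that restrains TGF-beta signalling. It lay at 74.0 and 82.2 CPM in KO and 68.1, 59.3 and 47.5 CPM in WT CD34+ libraries. In CD34- libraries it lay at 159 and 125 CPM in KO and 136, 134 and 111 CPM in WT. The groups did not overlap, as in 4.2% of tested genes.

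Cd109 fell to 66.2 ± 13.4 CPM in CD34+ cells, against 133 ± 17.6 CPM in CD34- cells (SD, n = 5 each; log2 -0.99 ± 0.20 SE, adjusted p = 0.0321, with the block 0.00648). The call was lost without the CD34+ library of KO replicate 1 (adjusted p = 0.165), KO replicate 2 (0.0859) or WT replicate 3 (0.0802) and without the CD34- library of either KO replicate (0.136 and 0.0703) or of WT replicate 1 (0.0708) or 2 (0.0719). It was lost without the 3 libraries of KO replicate 2 as well (log2 -1.11, adjusted p = 0.135). The sum of the 10 endothelial markers was 11.8 to 72.1 CPM in CD34+ and 3.30 to 8.67 CPM in CD34- libraries. Cdh5 was at 0 in 7 and Tek at 0 in 8 of the 15. Plvap reached 39.2 CPM and Flt1 18.7 CPM in their highest library, and each other endothelial marker 8.03 CPM at most. The macrophage and dendritic cell markers summed to 22.5 to 39.1 CPM and 17.3 to 24.2 CPM. Their part in the Cd109 difference was not tested.

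With the replicate label as a block 3 more list genes were called between these populations, which made 4 of the 63 tested (6.35%), close to the 5.41% of all tested genes given above. Ldlrad4, which encodes an inhibitor of Smad activation, fell to 2.94 ± 1.48 CPM in CD34+ against 8.66 ± 3.03 CPM in CD34- cells (SD, n = 5 each; blocked log2 -1.79, adjusted p = 0.0171; unblocked -1.70, 0.0734). Bhlhe40, a transcriptional repressor gene, fell to 499 ± 171 CPM against 823 ± 282 CPM (blocked -0.77, adjusted p = 0.0359; unblocked -0.77, 0.186). Hmga2, a chromatin protein gene that TGF-beta induces in epithelial cells, rose to 20.8 ± 14.9 CPM against 3.01 ± 1.43 CPM (blocked 2.67, adjusted p = 0.00551; unblocked 2.83, 0.105). Without the CD34+ library of KO replicate 2 the unblocked values were 2.05 for Hmga2 and -2.48 for Ldlrad4. Hmga2 had no overlap of the groups, as had 4.2% of tested genes. It lay at 8.69 to 43.0 CPM in CD34+ and 1.48 to 4.61 CPM in CD34- libraries. Of the receptor list, Acvr1b (log2 -0.71 ± 0.32 SE, adjusted p = 0.314) and Acvr2b (-0.71 ± 0.37 SE, adjusted p = 0.409), which encode activin receptors, had the smallest p.

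Between CD34+ and a6-low cells, the counts called higher and lower were 0 and 2 of 12 ligand, latency and activation genes, 0 and 0 of 10 receptor genes, 0 and 1 of 5 Smad genes, 0 and 2 of 15 inhibitors and 2 and 1 of 21 target genes. This was 8 of 63 list genes (12.7%), beside 4.93% of all tested genes. With the block the counts were 0 and 3, 0 and 1, 0 and 1, 1 and 4, and 4 and 3, 17 of 63 in all, beside 11.8% of all tested genes. Smad1, which carries signals of bone morphogenetic proteins, fell to 80.0 ± 5.59 CPM in CD34+ cells, against 151 ± 33.8 CPM in a6-low cells (log2 -0.94 ± 0.15 SE, adjusted p = 0.0101). Its call was lost without the CD34+ library of KO replicate 1 (adjusted p = 0.0645) and without the 3 libraries of KO replicate 2 (0.0705). Lrrc32, which encodes the GARP protein that tethers latent TGF-beta to the cell surface, fell to 1.42 ± 0.955 CPM against 9.76 ± 7.35 CPM (log2 -2.94 ± 0.74 SE, adjusted p = 0.0410). Itgb8, an integrin subunit gene whose product frees TGF-beta from latency, fell to 3.20 ± 1.06 CPM against 9.24 ± 5.63 CPM (log2 -1.52 ± 0.38 SE, adjusted p = 0.0392). In a6-low cells Lrrc32 lay at 20.0 and 6.51 CPM in KO and at 2.82, 14.9 and 4.61 CPM in WT libraries, and Itgb8 at 19.3 and 7.46 CPM in KO and at 6.11, 7.10 and 6.28 CPM in WT libraries. Both were highest in the a6-low library of KO replicate 1, where the 6 melanocyte markers summed to 140 CPM against at most 6.6 CPM in any other library (Tyr was at 0 in 10 of the 15). Their part in these differences was not tested. Without that library, which leaves 1 KO library in the a6-low group, the log2 difference was -2.43 for Lrrc32 and -1.11 for Itgb8.

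The other 5 called genes of that comparison were Cd109 (log2 -0.83 ± 0.20 SE, adjusted p = 0.0359), Ldlrad4 (-1.71 ± 0.43 SE, 0.0405) and Bhlhe40 (-1.11 ± 0.27 SE, 0.0389), which fell, and Hmga2 (3.46 ± 0.83 SE, 0.0362) and Id2 (1.53 ± 0.40 SE, 0.0454), which rose. Id2 encodes a helix-loop-helix repressor. It lay at 44.1 and 90.1 CPM in KO and 39.9, 83.7 and 32.7 CPM in WT CD34+ libraries. In a6-low libraries Id2 lay at 16.6 and 22.6 CPM in KO and 21.8, 25.2 and 16.9 CPM in WT. These 2 groups did not overlap, as in 6.91% of tested genes. Each of these 5 calls and those of Lrrc32 and Itgb8 was lost on leaving out any 1 of several libraries. These were 6 of 15 for Cd109, 7 for Hmga2, 8 for Itgb8, 10 for Lrrc32 and Bhlhe40, 11 for Ldlrad4 and 13 for Id2. With 1 library left out, Hmga2 ran from 2.68 (without the CD34+ library of KO replicate 2) to 5.31 (without its a6-low library), and Ldlrad4 from -2.49 (without the CD34+ library of KO replicate 2) to -1.34. Adjusted p ran to 0.191 at most, with the largest value without a KO CD34+ library in every case. Without the 2 a6-low libraries of high Itga6 the calls of Cd109 (adjusted p = 0.0623), Ldlrad4 (0.0631), Id2 (0.0875) and Bhlhe40 (0.0567) were lost, while Hmga2 (log2 6.07), Lrrc32 (-3.43), Itgb8 (-1.81) and Smad1 (-0.78) kept an adjusted p under 0.05. Without the 3 libraries of KO replicate 2, Hmga2 (log2 4.53, adjusted p = 0.0493) was the one of these 8 genes still called, and the others had adjusted p up to 0.185. Between CD34- and a6-low cells 0 list genes were called in either direction without a block (3 higher and 1 lower target genes with it), and 0 were called for KO against WT in each population and in the sums.

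**Figure D5:**
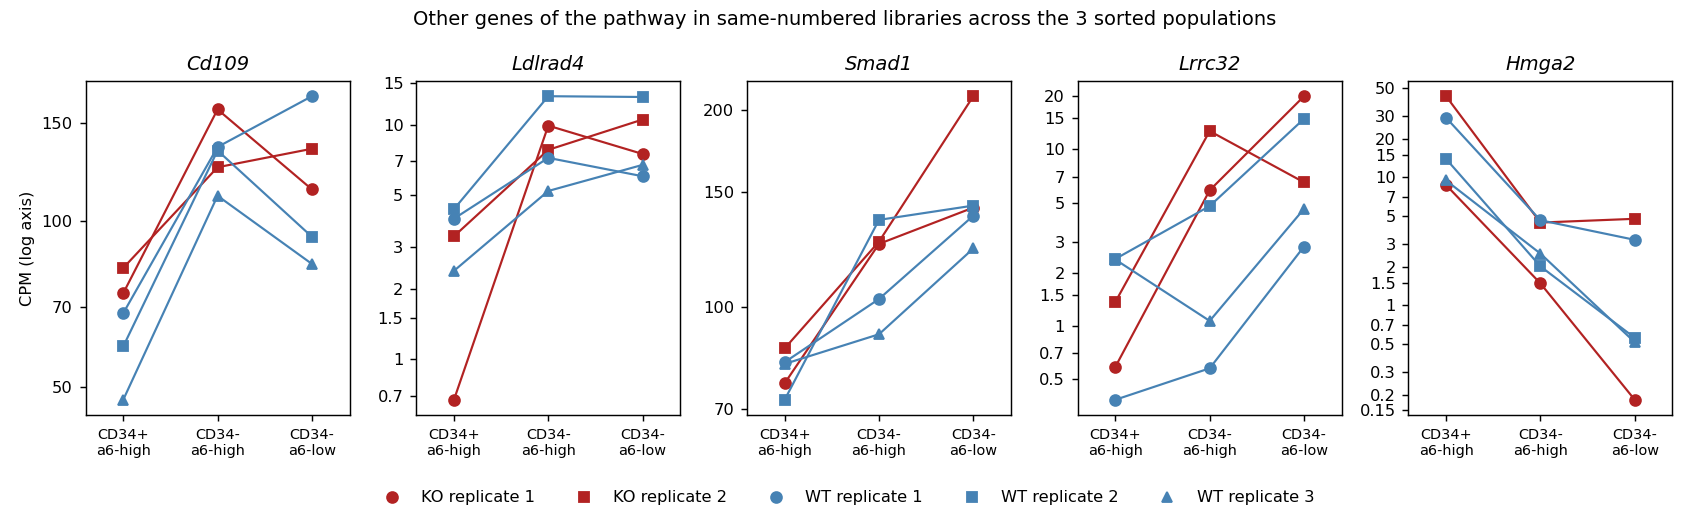
CPM (log axis) of 5 other pathway genes across the sorted populations, with a line joining libraries of 1 genotype and replicate number (KO red, WT blue). Cd109, Ldlrad4 and Smad1 are lower and Hmga2 is higher in the CD34+ library than in the CD34- library on every line. Of all tested genes 10.2% are lower and 10.1% higher on every line.

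The genes most like the 2 pathway genes of smallest p in the CD34 comparison were sought among 7765 genes of at least 10 CPM on average, by Spearman correlation over the 15 libraries, as a description only. For Tgfbi they were Col16a1 (rho = 0.914), Trp53i11 (0.904) and Atp8b2 (0.879), and for Skil they were Gramd3 (0.979), Litaf (0.979) and Sde2 (0.971). The points share libraries, populations and replicate labels. Sde2 lay at 58.7 to 198 CPM and Litaf at 108 to 392 CPM, beside 23.8 to 181 CPM for Skil.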

How the data were processed

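RNA of 15 sorted libraries was measured by SMART-Seq v4 RNA-seq, an unstranded full-length method. The deposited values are raw read counts per Ensembl gene, 1 file a library. The submitters' processing notes name STAR 2.3.0, Picard 1.100, HTSeq 0.6.0 and mm9. For the gene annotation, a release was not given in the sources used here. Totals and tests left out the 5 non-gene entries; those for reads not aligned uniquely held 29.86% to 38.04% of each file. Symbols were matched for 32860 of 37583 genes.

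Counts were scaled by TMM, filtered with filterByExpr and tested with edgeR 4.0.16 (quasi-likelihood, Benjamini-Hochberg over all tested genes, threshold 0.05) in R 4.3.3, in 1 fit of 6 groups, with population differences averaged over KO and WT; KO against WT was also tested on sums per replicate label. Standard errors (SE) are the log2 difference over the square root of its F statistic. A fit with the replicate label as a block (in KO against WT, the replicate number alone), DESeq2 1.42.0 and other filters were alternatives. The deviations of same-numbered libraries had r = 0.104 to 0.53 between CD34+ and CD34- cells (5 of 5 pairs over 0.1). Between CD34+ and a6-low cells r was 0.273 to 0.589. The WT pairs of CD34+ and CD34- cells had 0.104, 0.126 and 0.374. Both comparisons passed the cut of 0.1 set for pairing, which does not show that the libraries are pairs. Values come from the fit without a block unless the block is named. With 2 KO libraries in a population their deviations are mirror images, so both KO pairs give 1 value counted 2 times. The labels do not say that a number marks an animal, nor whether replicates were different mice. Ddx3y set KO replicate 2 apart from KO replicate 1. p-values reflect the scatter of these libraries, part of which may be technical. Replicates differed beyond counting noise (chi-square over its degrees of freedom, 35.3 to 274).

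The pathway genes and lists were chosen with earlier results of these data known. Other pathway genes are named where called in a comparison (with the block, in CD34+ against CD34- cells only), and otherwise the 2 of a list with the smallest p there; genes most alike are the 3 of highest Spearman correlation. Lengths (GENCODE M21) and promoters (RefSeq, GRCm38.p6) come from another build than the counts. Ddx3y, the order of the a6-low libraries and the fits without them or without KO replicate 2 were chosen after values were seen. The fits were also run on simulated counts drawn independently for each library. Those counts lack any likeness of same-numbered libraries, and no result given here rests on them.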

Additional observations from a re-analysis of the deposited data

Results flagged for a closer look

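Of 30 groups of 5 libraries (10 genes in 3 populations), 4 held a library far from the other 4, each time KO replicate 2. A gap to the nearest library above 0.71 of the group's whole range in CPM, not on the log scale, was the mark. The 30 groups share libraries, so no chance rate is given for the 4. In CD34+ cells Tgfb2 stood at 11.5 CPM with the nearest library at 5.24 CPM (gap 0.751 of the range). Inhba stood there at 144 CPM with the nearest at 39.3 CPM (0.751). In a6-low cells Inhba stood at 193 CPM with the nearest at 50.4 CPM (0.742), and Ltbp1 at 81.1 CPM with the nearest at 42.4 CPM (0.747). The 3 libraries of KO replicate 2 were also the ones with Ddx3y counts, and whether this bears on the values was not tested.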

How the results depend on the processing

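The numbers of genes called depended on the setting. The part of depth (10.08 to 28.62 M gene counts) in them was not tested. CD34+ against CD34- cells gave 853 genes with DESeq2, 1242 with no filter, 311 with these groups alone, 793 with the replicate block, 370 without the 2 a6-low libraries of high Itga6 and 32 without the 3 libraries of KO replicate 2. CD34- against a6-low cells gave 243, 602, 0, 60, 342 and 0 in that order, and 3 with a 10 CPM filter. CD34+ against a6-low cells gave 1596 with DESeq2, 1900 with no filter, 422 with these groups alone, 1733 with the block, 979 without the 2 a6-low libraries and 116 without KO replicate 2. KO against WT gave 27, 38, 6 and 143 genes with DESeq2 and 195, 256, 156 and 6 with no filter in CD34+, CD34- and a6-low cells and the sums. With the block it gave 2, 2, 2 and 0, with the groups alone 2 in CD34+ and 0 in a6-low cells, and without KO replicate 2 it gave 4 in CD34- and 6 in a6-low cells. The interactions gave 1 gene (CD34, DESeq2), 20 (CD34, no filter) and 13 (a6, no filter). Of the 10 pathway genes, no filter called 2 in CD34+ against CD34- cells (Inhba and Tgfbi), 2 in CD34- against a6-low cells (Inhba and Skil), and 1 (Inhba) in KO against WT in CD34+ and in a6-low cells. Without the 2 a6-low libraries, the highest of their group for all 10 genes, 2 were called in each comparison with a6-low cells, and without KO replicate 2 Skil was not (0 called). The cause of these shifts was not tested.

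Leaving out 1 library gave 7 to 298 genes called in CD34+ against CD34- cells, 1 to 50 in CD34- against a6-low, 41 to 761 in CD34+ against a6-low (0 to 1 pathway genes), 1 to 2, 1 to 2 and 1 to 3 in KO against WT, and 0 to 10 in the sums, where it was 9 without KO replicate 1, 10 without KO replicate 2 and 0 without WT replicate 1, 2 or 3.

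Directions turned as follows among the values recomputed, as log2 differences (in KO against WT within a population, only Inhba, Tgfb2 and Ltbp1 were recomputed under every setting). In CD34- against a6-low cells the block gave 0.58 for Tgfb2 and 0.07 for Smad7. Leaving out the 2 a6-low libraries gave 2.37 for Tgfb2, 1.93 for Inhba, 0.29 for Tgfbr1, 0.34 for Tgfbr2, 0.40 for Smad3 and 0.52 for Smad7, and leaving out KO replicate 2 gave 1.59 for Tgfb2, 0.20 for Tgfbr1, 0.15 for Tgfbr2 and 0.26 for Smad7. In CD34+ against a6-low cells the block gave 0.55 for Inhba. Without the 2 a6-low libraries the values were 1.69 for Tgfb2, 3.74 for Inhba, 0.34 for Ltbp1, 0.24 for Tgfbr1, 0.63 for Tgfbr2, 0.67 for Smad3, 0.39 for Smad7 and 0.58 for Tgfbi, and without KO replicate 2 they were 0.53 for Tgfb2, 1.08 for Inhba, 0.20 for Ltbp1, 0.42 for Tgfbr2 and 0.25 for Smad3. KO against WT without KO replicate 2 gave -0.48 in CD34+, -0.10 in CD34- and -2.04 in a6-low cells for Tgfb2, and -1.65 for Inhba and -0.03 for Ltbp1 in a6-low cells; Tgfb2 there was -0.93 without the 2 a6-low libraries. With the block KO against WT gave -0.05 for Tgfb1 and -0.03 for Skil in CD34+ and -0.13 for Tgfbr1 and -0.05 for Tgfbr2 in CD34- cells. In the sums Tgfb1 was 0.17 without KO replicate 1 and 0.18 without WT replicate 1, Smad7 was -0.02 with the block and -0.02 without WT replicate 3, and without KO replicate 2 Tgfb2 was -0.62, Tgfbr1 -0.13, Smad3 -0.34 and Tgfbi -0.16.

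With 1 library left out, these ranges crossed 0, where in KO against WT within a population only Inhba, Tgfb2 and Ltbp1 were refitted. In CD34+ against CD34- cells they were -0.24 to 0.12 for Tgfbr1 and -0.36 to 0.10 for Smad7. In CD34- against a6-low cells they were -0.05 to 0.80 for Tgfb1, -0.54 to 1.82 for Tgfb2, -2.45 to 0.09 for Inhba, -0.07 to 0.54 for Ltbp1, -0.49 to 0.21 for Tgfbr1, -0.70 to 0.04 for Tgfbr2 and -0.26 to 0.35 for Smad7. In CD34+ against a6-low cells they were -1.35 to 1.13 for Tgfb2, -1.01 to 1.89 for Inhba, -0.34 to 0.27 for Ltbp1, -0.53 to 0.17 for Tgfbr1, -0.41 to 0.33 for Tgfbr2, -1.14 to 0.26 for Smad3, -0.39 to 0.22 for Smad7 and -0.82 to 0.32 for Tgfbi. In KO against WT, Tgfb2 ran -0.48 to 1.38 in CD34+, -0.10 to 0.70 in CD34- and -2.04 to 2.82 in a6-low cells, and in a6-low cells Inhba ran -1.65 to 6.14 and Ltbp1 -0.03 to 1.18. In the sums Tgfb1 ran -0.37 to 0.18, Tgfb2 -0.62 to 1.67, Tgfbr1 -0.13 to 0.61, Smad3 -0.34 to 1.15, Smad7 -0.02 to 0.56 and Tgfbi -0.16 to 0.68. Between CD34- and a6-low cells (r = -0.0124 to 0.466) 3 of 5 pairs passed 0.1, and between KO and WT r ran from -0.501 to 0.105. Neither had every pair over the cut of 0.1, so the block there rests on a shared number only. In all comparisons the main fit had no block, also where every pair passed the cut.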

Other observations

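Among the other ligand, latency and activation genes, 11 of 12 tested were higher in KO than in WT CD34- cells, beside 53.6% of all tested genes, with a median log2 difference of 0.94 beside 0.05 over all tested genes. None was called by edgeR, 4 had an unadjusted p under 0.05, as had 1405 of all 14652 tested genes, and the list was chosen with earlier results known. Without the 3 libraries of KO replicate 2, 11 of 13 tested were higher there (median 0.66 beside 0.02). In CD34+ cells 7 of the 12 were higher (median 0.13 beside 0.01) and in a6-low cells 9 of 12 (median 0.15 beside 0.04).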
